A study of Mus musculus with 15 samples.

Results

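Galectins are small lectins that bind beta-galactoside sugars on glycoproteins and glycolipids. They lack a signal peptide, leave the cell by a non-classical route and crosslink receptors and matrix proteins outside it. Prototype galectins (Lgals1, Lgals2, Lgals7) carry a single carbohydrate-binding domain and can form dimers, the chimeric Lgals3 adds a long flexible tail to its domain, and the tandem-repeat galectins (Lgals4, Lgals8, Lgals9, Lgals12) carry a pair of linked domains. Lgals3bp is not a galectin but a secreted, heavily glycosylated scavenger receptor protein that galectins bind. In the pancreas, Lgals1 is known as a product of activated stellate cells and Lgals3 as one of cancer cells and macrophages, while Lgals2 and Lgals4 are best known from the lining of the stomach and gut. The genes described here are these 9, chosen by the gene name that the scanner files give a probe, and they are 9 of 37008 gene names on the array, with 15 of its 56605 probes.

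RNA was measured on 15 Agilent 1-colour mouse arrays in 5 groups of 3. Pancreatic stellate cells (PSC), the fibroblast-like cells of the pancreas, were taken from mice that were wild-type (PSC WT) or heterozygous (PSC HT) and had been activated by 2 weeks of culture. Mouse pancreatic cancer cells had spent 24 h in control medium, in medium conditioned by WT PSC (WT PSC medium) or in medium conditioned by HT PSC (HT PSC medium). The labels used here leave out the heterozygous locus, the strain and age of the mice and the name of the cancer line. They also do not say whether replicates were separate animals or cultures, and a p-value therefore rests on the spread among these arrays, which may be technical only. A level below is the log2 processed signal of a gene's brightest probe minus the 75th percentile of its array, so that 0 is a signal equal to that percentile; levels are compared within a gene only, because probes differ in brightness. A difference is a difference of such levels, given ± its SE from limma with the p-value adjusted over all genes of the fit, and 0.05 is the threshold for calling it.

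Spots well above background made up 54.26% to 63.78% of each array, none was saturated, and the arrays lay on 2 slides that each held every group. The lowest share was that of PSC HT 3. The other PSC arrays had 59.31% to 63.78% and the cancer cell arrays 54.96% to 59.59%. All 13 stellate cell or fibroblast markers checked were well above background on every PSC array, and Col1a1 and Acta2, the type I collagen chain and the smooth muscle actin of activated stellate cells, ranged from 7.21 to 7.75 and from 7.11 to 7.49 there. Of 13 epithelial markers 12 were well above background on each control cancer cell array. PSC HT 3 stood apart from the other 5 PSC arrays in many, though not all, epithelial genes. Cdh1 (E-cadherin) was at -2.45 on PSC HT 3, against -8.22 to -7.61 on the others, and Krt19, a duct keratin, at 0.95, against -1.58 to -0.68. On that array 9 of 13 epithelial markers were well above background, against 7 or 8 on the other PSC arrays, with a summed level of 4.58 against 2.73 to 3.91. A summed level is the log2 of the linear signals added over the markers of a list, so its brightest markers weigh most. Epcam, at -6.08 against -8.27 to -7.66, was not well above background on any PSC array. Each result that rests on PSC HT 3 is given with and without it.

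The probe sequences show which stretch of each transcript was read. Those of Lgals7 and Lgals8 are printed because they cover codons of the sugar-binding site that defines the family, and those of Lgals3 and Lgals4 because their positions span an intron. The capitals mark matches to the codons CANNNNAANCCNCGN, written for a histidine, any residue, an asparagine, a proline and an arginine, or to TGGGGNNNNGANNNNCGN, written for a tryptophan, a glycine, any residue, a glutamate, any residue and an arginine. Some of these letters also fit codons of other residues, and both patterns were searched on the printed strand alone.
Lgals3: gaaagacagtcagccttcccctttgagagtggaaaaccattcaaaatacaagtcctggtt
Lgals4: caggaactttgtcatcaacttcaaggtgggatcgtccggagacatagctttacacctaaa
Lgals7: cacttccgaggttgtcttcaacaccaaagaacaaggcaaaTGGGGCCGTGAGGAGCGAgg
Lgals8: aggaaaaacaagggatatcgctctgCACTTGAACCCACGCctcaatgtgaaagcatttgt
The first pattern was found in 12 of 56605 probes (0.0212%) and the other in 2 (0.00353%). In the files' coordinates (build mm9) the Lgals3 probe lies at chr14:48004398-48005214, 817 bases for a probe of 60, and the Lgals4 probe at chr7:29625966-29626217, 252 bases. The Lgals7 probe lies at chr7:29650625-29650684 and the Lgals8 probe at chr13:12539499-12539558.

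Other probes stood for the gene where they were brighter. These lie, on mm9, at chr14:48005414-48005473 for Lgals3, chr7:29626661-29626720 for Lgals4 and chr13:12531935-12531994 for Lgals8. The single probes of Lgals1 and Lgals2 lie at chr15:78760566-78760625 and chr15:78681315-78681374, and that of Lgals9 at chr11:78776922-78776981. The brightest probes of Lgals12 and Lgals3bp lie at chr19:7678568-7678627 and chr11:118254070-118254129. The probes of Lgals1 and Lgals2 and the brighter probes of Lgals3 and Lgals4 hold the polyadenylation signal AATAAA; exons and UTRs of mm9 were not annotated in the sources used here. The label was put into double-stranded cDNA, so a part of antisense transcripts in a signal was not tested.

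Lgals2 and Lgals4 had the largest differences between the cell types and moved together on PSC HT 3, and the bases upstream of their start sites are printed for that reason, from RefSeq on GRCm38.p6. RefSeq promoters were matched for 7 of the 9 genes, all but Lgals1 and Lgals12. The 250 bases before the start of Lgals2 lie at chr15:78855530-78855779 on the minus strand and those of Lgals4 at chr7:28833544-28833793 on the plus strand. Capitals mark matches, on either strand, to AGATAA, CAAAGTCC or GTTAAT, letters known from GATA, HNF4 and HNF1 binding sites and chosen with these sequences known.
Lgals2: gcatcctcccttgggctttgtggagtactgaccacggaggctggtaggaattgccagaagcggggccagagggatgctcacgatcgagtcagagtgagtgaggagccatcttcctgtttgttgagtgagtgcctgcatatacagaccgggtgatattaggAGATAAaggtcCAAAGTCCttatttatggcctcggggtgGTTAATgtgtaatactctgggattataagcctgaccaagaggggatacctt
Lgals4: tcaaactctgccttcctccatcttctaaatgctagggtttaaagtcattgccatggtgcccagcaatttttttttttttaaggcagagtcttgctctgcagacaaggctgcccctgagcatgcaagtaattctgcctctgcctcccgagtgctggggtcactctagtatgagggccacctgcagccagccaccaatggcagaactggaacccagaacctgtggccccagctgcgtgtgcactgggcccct
The Lgals2 window held 1 match of each, and the Lgals4 window none. Of 32851 promoter windows of the same length 9.99% hold AGATAA, 1.2% CAAAGTCC and 6.43% GTTAAT and the matches do not overlap. A match describes the letters only. The dinucleotide CG occurred 6 times in the Lgals2 window and 2 times in that of Lgals4, against a median of 6 over all windows. Lgals3 had 13 and Lgals7 had 5, each with a match to GGGCGG, which 32.7% of windows hold. The windows of Lgals8, Lgals9 and Lgals3bp had 4, 3 and 2 and no such match.

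**Figure D1:**
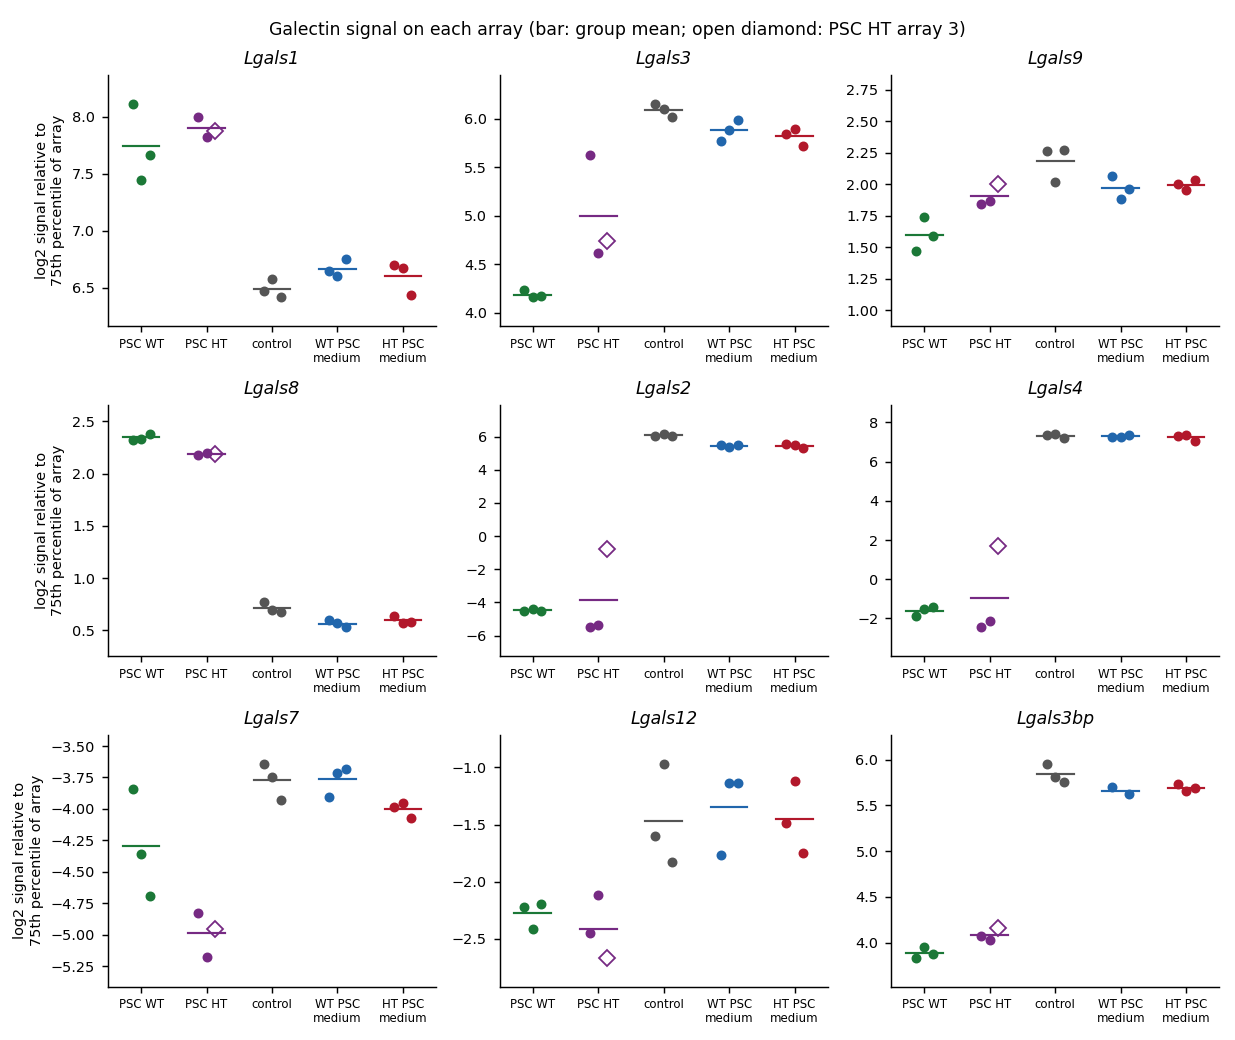
Level of each of the 9 genes (log2 signal relative to the 75th percentile of the array, vertical axis) on each of the 15 arrays, by group; bars are group means and the open diamond is PSC HT 3. Lgals1 and Lgals8 sit higher on all PSC arrays than on all cancer cell arrays, Lgals2, Lgals3, Lgals4 and Lgals3bp lower, and PSC HT 3 lies 4.68 above the mean of PSC HT 1 and 2 for Lgals2 and 4.0 above it for Lgals4; vertical ranges differ between panels.

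The first comparison asked how stellate and cancer cells differ in galectins, with PSC WT set against cancer cells in control medium. Cell types differed in 71.4% of the 21928 genes tested, and of the galectin genes 8 of 9 were called, 2 higher in PSC WT (36.1% of all genes) and 6 lower (35.2%). The median difference of the 9 was -0.81, against 0.04 for all genes tested. The stellate cells had more Lgals1 and Lgals8 signal, and the cancer cells more of all others but Lgals7. In bulk RNA, fewer cells of a type and less RNA per cell cannot be told apart.

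Lgals1, the dimer-forming galectin of fibroblasts, was at 8.12, 7.45 and 7.66 on the PSC WT arrays and at 6.47, 6.58 and 6.42 on the control arrays. The groups did not overlap, and the difference was 1.25 ± 0.18 (2.38-fold, adjusted p = 0.000678 by limma). PSC HT arrays were at 8.0, 7.82 and 7.88, within the range of PSC WT.

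Lgals8, the tandem-repeat galectin that binds integrins and damaged endosomes, was at 2.32, 2.34 and 2.38 in PSC WT and at 0.77, 0.69 and 0.68 in control cells. Every PSC array lay above every cancer cell array, with a difference of 1.63 ± 0.08 (3.1-fold, adjusted p = 3.26e-06 by limma). The probe over the sugar-binding codons printed above differed in the same direction, by 1.25 ± 0.12. The third Lgals8 probe was not well above background on any array.

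Lgals2 showed the largest difference of the 9 genes. Its levels were -4.49, -4.37 and -4.54 in PSC WT and 6.01, 6.17 and 6.05 in control cancer cells, a difference of -10.55 ± 0.09 (1495-fold, adjusted p = 1.02e-08 by limma). All 6 readings were well above background.

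Lgals4, the tandem-repeat galectin of gut epithelium, followed with -1.90, -1.52 and -1.42 in PSC WT against 7.36, 7.42 and 7.22, a difference of -8.95 ± 0.14 (494-fold, adjusted p = 2.48e-08 by limma). Its intron-spanning probe gave -9.86 ± 0.13. A probe for Lgals6, a close copy of Lgals4 with no position on mm9 in the files, moved likewise, from -3.49 to -3.20 in PSC WT and from 6.23 to 6.34 in control cells; how far transcripts of one bind the probes of the other was not tested.

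Lgals3 was present in both cell types. It stood at 4.23, 4.16 and 4.17 in PSC WT and at 6.16, 6.10 and 6.02 in control cells, a difference of -1.91 ± 0.08 (3.75-fold, adjusted p = 1.86e-06 by limma), and its intron-spanning probe gave -2.03 ± 0.08. Its ligand Lgals3bp was at 3.84, 3.95 and 3.88 against 5.95, 5.81 and 5.75 (-1.95 ± 0.09, adjusted p = 2.81e-06 by limma). For Lgals3bp the call rests on the brightest probe: with the median over its probes the difference was -0.35 (adjusted p = 0.153 by limma). The other probe went the opposite way, with a mean of -5.26 in PSC WT and -6.52 in control cells. It was well above background on 3 of 15 arrays, 2 of PSC WT and 1 of PSC HT.

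Lgals9, a tandem-repeat galectin of immune regulation, differed less, at 1.47, 1.74 and 1.59 in PSC WT and 2.27, 2.02 and 2.28 in control cells (-0.59 ± 0.12, adjusted p = 0.00355 by limma). Within slide 1 the difference was -0.80 and within slide 2 -0.36. Lgals12, best known from fat cells, was at -2.22, -2.41 and -2.20 against -1.60, -0.97 and -1.82 (-0.81 ± 0.22, adjusted p = 0.0149 by limma), with -0.51 within slide 1 and -1.33 within slide 2; its other probe was not well above background on any array. Lgals7, a galectin of stratified epithelium, was at -3.84, -4.36 and -4.69 against -3.65, -3.75 and -3.93, and its groups overlapped (-0.52 ± 0.22, adjusted p = 0.0689 by limma). It was called without PSC WT 1 (-0.75, adjusted p = 0.00721) and with quantile (-0.89, adjusted p = 0.0216) or median scaling (-0.91, adjusted p = 0.00561 by limma).

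The scaling matters for the whole of this comparison. When arrays were scaled to their median, all genes shifted to a median difference of -0.35, and the calls split into 5334 higher and 10436 lower, against 7924 and 7727. Lgals1 (0.87) and Lgals8 (1.24) stayed positive under it, and the 6 galectin genes called lower stayed negative. With slide as a block Lgals1 and Lgals8 had 1.32 and 1.63, Lgals2 and Lgals4 -10.57 and -9.04, Lgals3 and Lgals3bp -1.90 and -1.95, and Lgals9 and Lgals12 -0.58 and -0.92.

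The enzymes that build or cap galectin ligands, and the glycoproteins that galectins bind, were described from a list of each. Of 34 glycan enzymes tested 14 were called higher in PSC WT and 17 lower, where 36.1% and 35.2% of all genes were, with a median difference of -0.28 against 0.04 for all genes. Among the higher ones were the galactosyltransferase B4galt4 (2.89 ± 0.08), the mannosidase Man2a1 (1.83 ± 0.09) and the N-acetylglucosaminyltransferase B3gnt5, at least 5.25-fold higher, with no control array well above background. Among the lower ones were Gcnt3, which makes branched mucin-type glycans, and Galnt3, which starts them, at least 819-fold and at least 253-fold lower with no PSC WT array well above background, and the sialyltransferase St3gal6 (-6.08 ± 0.15). Such "at least" folds set the brighter group's mean against a bound that takes, on each array of the dimmer group, the probe's own reading or the lowest signal well above background, whichever was higher.

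Of 31 galectin-binding proteins tested 17 were called higher in PSC WT and 9 lower, against the same 36.1% and 35.2% of all genes, with a median difference of 0.73 against 0.04. The glycoprotein Thy1 of fibroblasts and the laminin chain Lama1 were at least 5832-fold and at least 665-fold higher, and the fibronectin receptor subunit Itga5 was higher by 5.21 ± 0.14. The membrane mucin Muc1 was lower by 9.14 on the log2 scale (SE 0.13; 2 of 3 PSC WT arrays well above background), the hemidesmosome integrin Itgb4 had -4.33 ± 0.10 and the adhesion molecule Alcam -2.27 ± 0.13.

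The second comparison set PSC HT against PSC WT. None of the 9 galectin genes was called by limma, while 7.73% of the 20886 genes tested were. At an unadjusted p under 0.05 there were 5 of 9, against 4633 of all genes. The same number, 5 of 9, had genotypes that did not overlap, which 29.1% of all genes had. Lgals3, Lgals9 and Lgals3bp were above PSC WT on all PSC HT arrays, and Lgals7 and Lgals8 below.

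Lgals3 was at 5.63, 4.61 and 4.74 in PSC HT against 4.23, 4.16 and 4.17 in PSC WT. PSC HT 1 lay well above the other PSC HT arrays, and the SD was 0.55 in PSC HT against 0.04 in PSC WT. The difference was 0.81 ± 0.26 (1.75-fold, adjusted p = 0.132 by limma), and 0.86 ± 0.28 with the intron-spanning probe. Without PSC HT 1 it was 0.49 and was called (adjusted p = 0.0373 by limma), without PSC HT 3 it was 0.93 (adjusted p = 0.168), and within slides 1 and 2 it was 0.95 and 0.45.

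Many macrophage markers, though not all, were higher in PSC HT on the same arrays. Their summed level over 12 markers was 5.76 to 6.10 in PSC WT and 6.69 to 7.66 in PSC HT. Adgre1 (the macrophage antigen F4/80) was at -2.02, -3.00 and -3.38 in PSC WT and at 1.16, -0.54 and -0.43 in PSC HT (2.87 ± 0.55, adjusted p = 0.0290 by limma). Lyz2, a lysozyme of myeloid cells, was at 4.28, 3.39 and 3.20 against 6.90, 5.62 and 5.61 (2.42 ± 0.43, adjusted p = 0.0243 by limma). Of the same 12 markers, Ptprc (-0.16 ± 0.15) and Itgam (-0.05 ± 0.07) overlapped between genotypes. Cd14 was higher on all PSC HT arrays but was not called (1.61 ± 0.37, adjusted p = 0.0544 by limma). PSC HT 1 was the highest array for Lgals3, Adgre1 and Lyz2 alike. The part of macrophage RNA in the Lgals3 difference was not tested.

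Lgals9 was at 1.85, 1.87 and 2.00 in PSC HT against 1.47, 1.74 and 1.59, with the genotypes apart (0.31 ± 0.10, adjusted p = 0.123 by limma) and 0.45 and 0.20 within slides 1 and 2. Lgals3bp, at 4.07, 4.03 and 4.15 against 3.84, 3.95 and 3.88, differed by 0.20 ± 0.07 (adjusted p = 0.185 by limma). Lgals1 overlapped between genotypes, with a difference of 0.16 ± 0.17 (adjusted p = 0.673 by limma) that was -0.18 within slide 1 and 0.27 within slide 2.

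Below PSC WT was Lgals7, at -4.83, -5.18 and -4.96 in PSC HT with 2 of 3 arrays well above background. Its difference was -0.69 ± 0.22 (adjusted p = 0.131 by limma). With slide as a block it was -0.85 and was called (adjusted p = 0.0359 by limma), and within slides 1 and 2 it was -1.05 and -0.65. Lgals8 was at 2.17, 2.20 and 2.19, a difference of -0.16 ± 0.06 (adjusted p = 0.211 by limma) that its coding probe did not show (-0.02 ± 0.08). Lgals12 overlapped, at -2.45, -2.12 and -2.66 (-0.13 ± 0.15, adjusted p = 0.680 by limma).

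Lgals2 and Lgals4 changed direction with a single array. Lgals2 was at -5.50, -5.36 and -0.75 in PSC HT, and its difference from PSC WT was 0.60 ± 1.24 with all arrays (adjusted p = 0.844 by limma) and -0.96 ± 0.10 without PSC HT 3 (adjusted p = 0.0108 by limma; 1 of the 2 remaining PSC HT arrays well above background). Lgals4 was at -2.45, -2.12 and 1.72, with 0.66 ± 1.07 (adjusted p = 0.793 by limma) and, without PSC HT 3, -0.67 ± 0.18 (adjusted p = 0.127 by limma). PSC HT 3 was thus far above all other PSC arrays for both genes, while PSC HT 1 and 2 were below all PSC WT arrays.

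Within slide 1, which holds PSC HT 3, Lgals2 and Lgals4 differed by 1.37 and 1.53, and within slide 2 by -0.90 and -0.64. Without PSC HT 3, 1 of the 9 genes was called, where 4.44% of 21281 genes were, and 7 of 9 did not overlap, where 37.2% of all genes did not. On the linear scale the signal of PSC HT 3 was 0.881% of the mean of the control cancer cells for Lgals2 and 2.03% for Lgals4. The highest other PSC array had 0.0715% and 0.231%.

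Many epithelial markers, though not all, were also highest on PSC HT 3 among the PSC arrays. Of the 13 markers, Cldn4, Esrp1 and Grhl2 were not. Cldn4 was at -5.72 there and -5.29 on PSC HT 1, and Esrp1 at -3.56 and -3.17 on PSC HT 2. Grhl2 was at -7.00 there and -6.96 on PSC WT 2. Cdh1 was at 0.850% of the control level, against 0.0238% on the highest other PSC array, Krt19 at 1.59% against 0.514%, and the claudin Cldn7 at 1.25% against 0.456%. The keratins Krt7, Krt8 and Krt18 were at 1.90%, 3.22% and 4.89%, against 1.51%, 2.02% and 3.42%, so their ratio to the highest other PSC array was smaller than that of Cdh1, Lgals2 and Lgals4. The part of epithelial RNA in the Lgals2 and Lgals4 signal was not tested.

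**Figure D2:**
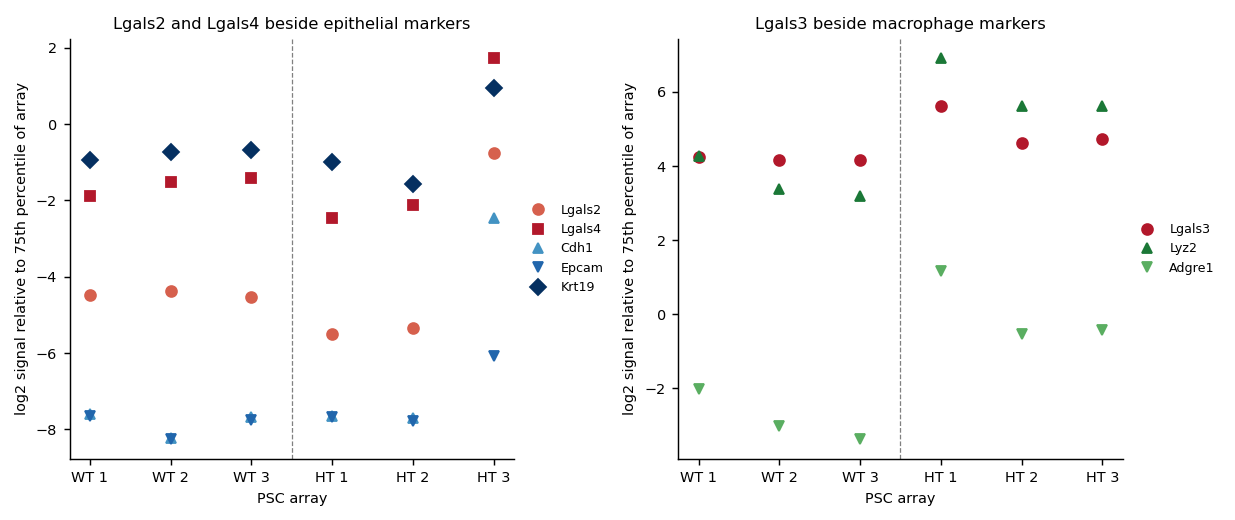
Levels (log2 signal relative to the 75th percentile of the array, vertical axis) on the 6 PSC arrays, with a dashed line between the genotypes. On the left, Lgals2, Lgals4, Cdh1, Epcam and Krt19 are each highest on HT 3, with Lgals2 at -0.75 and Cdh1 at -2.45; on the right, Lgals3, Lyz2 and Adgre1 are each highest on HT 1, with Lgals3 at 5.63 and Lyz2 at 6.90.

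Among 32 glycan enzymes tested 1 was called higher and 3 lower in PSC HT, where 2.95% and 4.78% of all genes were, with a median difference of 0.01. The N-acetylglucosaminyltransferase B3gnt3 rose by 1.77 ± 0.19, with 1 of 3 PSC WT arrays well above background. B3gnt3 kept its call in all 12 other settings that tested it. Its difference was smaller with normexp background correction (0.62 ± 0.12) and with the series matrix (0.59 ± 0.10). B4galt4 had -1.25 ± 0.07 (adjusted p = 0.000850 by limma), the core 2 branching enzyme Gcnt1 -1.34 ± 0.17 and B3gnt5 -0.54 ± 0.12. Among 13 other settings the call was lost in 2 for Gcnt1, in 7 for B3gnt5 and in 0 for B4galt4. Gcnt1 lost it with the median over its probes (-0.94, adjusted p = 0.0990 by limma) and with no filter (adjusted p = 0.0536). B3gnt5 lost its call in 5 of 6 fits that left out 1 array, PSC HT 3 among them (-0.53, adjusted p = 0.126 by limma), and kept it without PSC WT 1. St3gal6 was called only without PSC HT 3 among these fits (-1.59 ± 0.16, adjusted p = 0.00948 by limma), against -1.20 ± 0.33 with all arrays (adjusted p = 0.0893), which left the counts at 1 higher and 3 lower.

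Of 30 galectin-binding proteins none was called higher and 3 were lower, where 2.95% and 4.78% of all genes were; without PSC HT 3 there were 2. The VEGF receptor Kdr had -1.40 ± 0.14, the laminin-binding integrin chain Itga7 -1.28 ± 0.14 and the proteoglycan Cspg4 -0.85 ± 0.18. Among 13 other settings the call was lost in 2 for Kdr, in 7 for Cspg4 and in 0 for Itga7. Kdr lost it with the median over its probes (-0.79, adjusted p = 0.2115 by limma) and in the fit over 15 arrays (adjusted p = 0.0521). Cspg4 lost its call in 5 of 6 fits that left out 1 array, PSC HT 3 among them (-0.72, adjusted p = 0.112 by limma), and kept it without PSC WT 3. Kdr is also an endothelial marker. The summed level of 7 endothelial markers, Kdr among them, was 0.22 to 0.40 in PSC WT and -1.89 to -1.62 in PSC HT. Of these 7, Cdh5, Emcn, Esam and Kdr were called lower. Pecam1 overlapped between genotypes (-0.28 ± 0.19, adjusted p = 0.456 by limma). Tek and Tie1 were not well above background on any PSC array. The part of endothelial RNA in the Kdr difference was not tested. The summed level of 6 mesothelial markers was 5.28 to 5.59 in PSC WT and 3.39 to 4.10 in PSC HT.

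**Figure D3:**
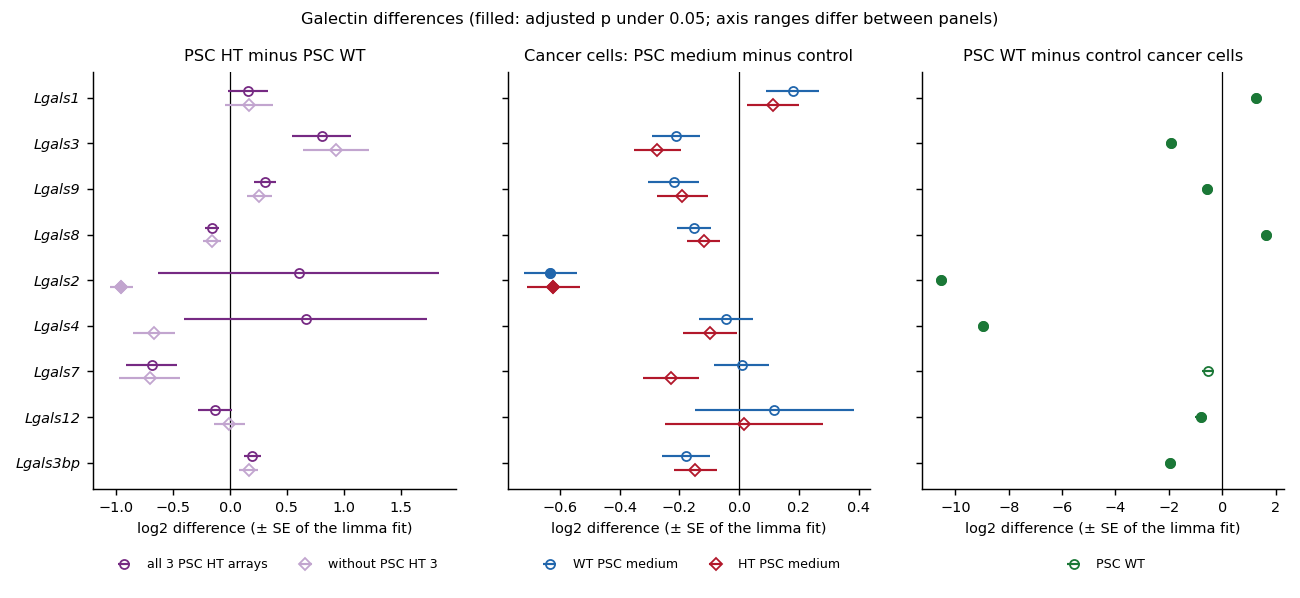
Log2 difference (horizontal axis, bars ± SE of the limma fit) of each of the 9 genes between PSC genotypes with and without PSC HT 3, between cancer cells in PSC medium and in control medium, and between PSC WT and control cancer cells; filled symbols have an adjusted p under 0.05. Lgals2 moves from 0.60 to -0.96 between PSC genotypes when PSC HT 3 is left out, is filled at -0.63 and -0.62 for the 2 media, and lies at -10.55 between cell types.

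The third question was how cancer cells respond to PSC medium, and here the cells exposed to either medium had less Lgals2. WT PSC medium changed 1 of the 9 genes (5.95% of 19687 genes tested) and HT PSC medium 1 of 9 (5.47%), each set against the same 3 control arrays. Both calls were downward, where 3.15% and 2.5% of all genes were called lower. Lgals2 was at 6.01, 6.17 and 6.05 in control medium. WT PSC medium gave 5.48, 5.35 and 5.50, a difference of -0.63 ± 0.09 (1.55-fold lower, adjusted p = 0.00475 by limma). HT PSC medium gave 5.56, 5.50 and 5.30, a difference of -0.62 ± 0.09 (1.54-fold lower, adjusted p = 0.00627 by limma). Neither medium overlapped the controls.

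For WT PSC medium the Lgals2 difference was -0.65 when the fit had a term for slide, and -0.55 and -0.74 on slides 1 and 2 alone. For HT PSC medium it was -0.62, -0.60 and -0.66. In a single fit over all 15 arrays, where the spread of Lgals2 includes that of the PSC HT arrays (SD 2.70, against 0.08 to 0.14 in the cancer cell groups), neither was called (adjusted p = 0.789 and 0.831 by limma).

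The other galectins moved less. Lgals4 overlapped the controls at 7.27, 7.24 and 7.37 in WT PSC medium and at 7.29, 7.35 and 7.07 in HT PSC medium, with differences of -0.04 ± 0.09 and -0.10 ± 0.09. Groups did not overlap for 5 of 9 genes in WT PSC medium (25.3% of all genes) and for 5 of 9 in HT PSC medium (24.4%).

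Lgals3 was at 5.77, 5.89 and 5.99 in WT PSC medium and at 5.84, 5.90 and 5.72 in HT PSC medium, below the 6.02 to 6.16 of the controls. Its differences were -0.21 ± 0.08 (adjusted p = 0.182 by limma) and -0.27 ± 0.08 (adjusted p = 0.0949 by limma); with quantile scaling the latter was called (-0.28, adjusted p = 0.0482). Lgals3bp was at 5.70 and 5.62 in WT PSC medium, the remaining reading being an outlier spot that the fit left out, and at 5.73, 5.66 and 5.69 in HT PSC medium, with -0.18 ± 0.08 and -0.15 ± 0.07.

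Lgals1 had differences of 0.18 ± 0.09 and 0.11 ± 0.09 in WT and HT PSC medium, Lgals8 of -0.15 ± 0.06 and -0.12 ± 0.06, and Lgals9 of -0.22 ± 0.09 and -0.19 ± 0.09. Lgals7, at -3.90, -3.71 and -3.68 in WT PSC medium and -3.98, -3.95 and -4.07 in HT PSC medium, had 0.01 ± 0.09 and -0.23 ± 0.09. Lgals12, with SDs of 0.32 to 0.44 in the cancer cell groups, had 0.12 ± 0.27 and 0.02 ± 0.27. None of these passed the threshold.

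HT PSC medium set directly against WT PSC medium gave no called galectin, and 0% of all 19687 genes were called by limma. At an unadjusted p under 0.05 there was 1 of 9, against 960 of all genes. Lgals2 differed by 0.01 ± 0.09 between the media and Lgals3 by -0.06 ± 0.08. Lgals7 alone did not overlap (-0.24 ± 0.09, adjusted p = 0.984 by limma), as did not 11.5% of all genes.

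Of 33 glycan enzymes tested WT PSC medium raised 1 and HT PSC medium 2, where 2.8% and 2.97% of all genes were called higher, and none was lower. Galnt1, which starts mucin-type glycans, rose by 0.52 ± 0.07 and 0.53 ± 0.07. With the median over its probes Galnt1 was called in neither medium (0.47 ± 0.24, adjusted p = 0.372, and 0.66 ± 0.24, adjusted p = 0.213 by limma). Galnt3, an enzyme of the same step, rose in HT PSC medium by 0.53 ± 0.09, a call lost without HT PSC medium 1 (adjusted p = 0.0635 by limma) or 3 (0.0597). Of 25 galectin-binding proteins each medium raised 1, the glypican Gpc1 (0.49 ± 0.08 and 0.51 ± 0.08), and lowered 1, the receptor kinase Mertk (-0.40 ± 0.09, adjusted p = 0.0475, and -0.49 ± 0.09, adjusted p = 0.0229 by limma), where 3.15% and 2.5% of all genes were called lower. The Mertk call was lost in 8 of 9 fits that left out 1 array for WT PSC medium, all but that without HT PSC medium 1, with adjusted p up to 0.142. For HT PSC medium it was lost in 4 of 9, those without control 1 or 2 or HT PSC medium 1 or 2. It was also lost with the replicate number as a block (adjusted p = 0.0936 and 0.0562 by limma). Between the media none of either list was called by limma, with 3 enzymes and no binding protein at an unadjusted p under 0.05.

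The order of the 5 groups differed between genes. Lgals1 fell into 2 tiers, with PSC HT (7.90) and PSC WT (7.74) overlapping at the top and the cancer cell groups (6.67, 6.60 and 6.49) overlapping with their neighbours below. Lgals8 ran from PSC WT (2.35) through PSC HT (2.19) and control (0.72) to HT and WT PSC medium (0.60 and 0.56), and of these neighbours only the media overlapped. Lgals2 ran from control (6.08) through HT and WT PSC medium (5.45 and 5.44, overlapping) to PSC HT (-3.87, or -5.43 without PSC HT 3) and PSC WT (-4.47). Lgals3 ran from control (6.09) through WT and HT PSC medium (5.88 and 5.82, overlapping) to PSC HT (4.99) and PSC WT (4.19). Lgals3bp had the same kind of order, with control at 5.84, HT and WT PSC medium at 5.69 and 5.66, PSC HT at 4.08 and PSC WT at 3.89. Lgals9 went from control (2.19) to PSC WT (1.60), and PSC HT (1.91) overlapped the media (2.00 and 1.97). The cancer cell groups of Lgals4 (7.34, 7.29 and 7.24) and of Lgals12 (-1.35 to -1.47) overlapped with their neighbours and lay above both PSC groups. Lgals7 was lowest in PSC HT (-4.99), below PSC WT (-4.30) without overlap.

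Over the 15 arrays the genes whose levels were most like those of a galectin were found by Pearson's r among 14801 genes. These values describe the arrays, which fall into 2 cell types, so that most of the spread is the gap between them. Lgals2 was closest to Eps8l3 (0.998) and Vil1 (0.997), an actin-bundling protein of microvilli, and Lgals4 to the adaptor Grb7 (0.998) and Eps8l3 (0.998). Vil1 averaged 3.74 in control cells and -8.0 in PSC WT. Without PSC HT 3, 2 of the 20 nearest genes were shared for Lgals2 and 2 of 20 for Lgals4, and between 11 and 18 of 20 for the other genes.

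Lgals1 was closest to the lamin Lmna (0.994) and the mitochondrial ribosomal gene Mrpl54 (0.994), and Lgals8 to Gas6 (0.999), a ligand of receptor kinases, and Cyp1b1 (0.999). Lgals3 was closest to the arrestin Arrb2 (0.986) and Zranb3 (0.985), and Lgals3bp to Tspan13 (0.998) and Madd (0.998) over 14 arrays. Lgals7 (Jaml, 0.952, and Smim3, 0.943), Lgals9 (Rtn4rl1, 0.950, and the acute phase protein Lbp, 0.940) and Lgals12 (Ano8, 0.976, and Prss3, 0.974) had looser neighbours.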

How the data were processed

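Per the file headers, the authors' scanner files hold 1-colour intensity values extracted with Agilent Feature Extraction 10.7.3.1, background subtracted and detrended within an array with no scaling between arrays. The authors' deposited series matrix gives log2 values; how they were made is not given in the sources used here, so within a cell type they were 1 of the alternatives.

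The log2 processed signal of the scanner files minus the array's 75th percentile (913 to 1449 signal units) was taken, outlier spots were left out and spots of a probe averaged. The brightest probe stood for its gene, tested where some group of the fit had it well above background on each of its arrays. RefSeq names came through the accession for 32994 probes, a symbol for 10224 and a synonym for 520; 12867 kept the file's name. Differences were fitted with limma 3.58.1 (R 4.3.3, with version 1.17.8 of data.table) per cell type, and per pair of groups between cell types, with Benjamini-Hochberg adjustment. Precision is limited by the 3 arrays per group.

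All 9 genes are named, and from the lists of 36 glycan enzymes and 35 galectin-binding proteins (34 on the array) up to 3 per direction and comparison with the smallest adjusted p among those called whose groups did not overlap, the 2 genes nearest in pattern, and markers; further markers, Lgals6 and the genes whose call changed were named after their values were seen. The genes, lists and tests were chosen with earlier results of these data known. On simulated data the fit of PSC genotypes called 43.3%, 70.1% and 95.5% of genes changed by 0.5, 1 and 2 on the log2 scale. That of WT PSC medium called 49.3%, 82.1% and 90.9%, and that between cell types 11.9%, 58.2% and 84.8%. Each simulation changed 67, 67 and 66 genes by these sizes and left 20655, 19442 and 21688 unchanged. In the data far larger shares were called (7.73%, 5.95% and 71.4%). The adjusted p depends on that share, so these values do not give the power of the comparisons here. Deviations from the group means correlated over 0.1 in each same-number pair of control and WT PSC medium (0.139, 0.208 and 0.204). This was not so in each pair of the PSC genotypes, of control and HT PSC medium or of the media. Among different-number pairs of control and WT PSC medium, some were also over 0.1 (0.175, 0.164 and 0.109). The others lay from -0.361 to -0.318. Whether numbers pair those arrays therefore cannot be told, and the main fits had no term for them. Alternatives changed background correction (normexp, offset 50), scaling, filter, probes, blocks for slide or replicate number, variance model, arrays and threshold. Figures were drawn with matplotlib 3.10.9 (Python 3.11.15, pandas 2.3.3, numpy 2.4.6).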

Additional observations from a re-analysis of the deposited data

How the results depend on the processing

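Each difference of the 9 genes and each count of called genes was recomputed under the alternatives; within-slide values were added after seeing the data. Of the genes called between cell types, Lgals1, Lgals2, Lgals3, Lgals4, Lgals8 and Lgals9 kept direction and call in every alternative run, with Lgals1 from 0.87 to 1.67 and Lgals8 from 1.24 to 1.67. Lgals3bp lost its call with the median over probes (-0.35) and Lgals12 at a threshold of 0.01 (adjusted p = 0.0149). Lgals2 in WT and HT PSC medium ranged from -0.74 to -0.55 and from -0.68 to -0.54. Its call was lost in the single fit over 15 arrays, which left 0 galectin genes called in each medium; quantile scaling called 2 in HT PSC medium. Between PSC genotypes 3 galectin genes were called in the fit over 15 arrays, Lgals3 (adjusted p = 0.0189), Lgals7 (0.0229) and Lgals9 (0.0488), 1 with slide as a block (Lgals7) and 1 with trended, robust variances (Lgals9, adjusted p = 0.0469).

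Same-number arrays correlated at -0.0026 to 0.134 between PSC genotypes, at -0.0814 to 0.226 between control and HT PSC medium and at -0.166 to 0.116 between the media. Control and WT PSC medium gave 0.139 to 0.208, though control 1 correlated more with WT PSC medium 2 (0.175). The replicate block called Lgals7 between cell types (adjusted p = 0.0338), and left 1 galectin-binding protein called in WT PSC medium and 1 in HT PSC medium, with Mertk lost from each. It changed no call of the 9 genes in WT PSC medium.

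Glycan enzymes called between PSC genotypes numbered 2 with no filter or the median over probes, 7 with slide as a block or trended variances and 11 in the fit over 15 arrays; binding proteins numbered 6 in each of the last 2. In WT PSC medium enzymes numbered 3 with quantile scaling or trended variances, 2 with slide as a block and 0 with the median over probes; binding proteins numbered 1 with normexp, quantile or median scaling, no filter, median over probes, every probe, slide block, trended variances, 15 arrays, the series matrix or a threshold of 0.01. In HT PSC medium enzymes numbered 5 with trended variances and 1 with no filter, median over probes, 15 arrays or a threshold of 0.01; binding proteins numbered 1 with normexp, median scaling, no filter, trended variances, 15 arrays, the series matrix or a threshold of 0.01. Where not stated above, the cause was not tested.

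Differences near 0 changed sign: Lgals4 in WT PSC medium (0.0080 with median scaling), Lgals7 and Lgals12 there (-0.0275 and -0.0904 with slide as a block), and between the media Lgals3bp (-0.0191 with median scaling), Lgals9 and Lgals12 (-0.0223 and 0.107 with slide as a block).

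Leaving out 1 array at a time gave 0 to 1 galectin genes called between PSC genotypes (Lgals3 without PSC HT 1, Lgals2 without PSC HT 3), 1 to 2 binding proteins in WT PSC medium and 1 to 2 in HT PSC medium, and 1 to 3 enzymes in HT PSC medium. It turned the sign of some differences. Between PSC genotypes Lgals2 ranged from -0.96 (without PSC HT 3) to 1.42 and Lgals4 from -0.67 (without PSC HT 3) to 1.42. In WT PSC medium Lgals4 ranged from -0.0992 to 7e-04, Lgals7 from -0.0682 to 0.0769 and Lgals12 from -0.0617 to 0.366, and in HT PSC medium Lgals12 from -0.163 to 0.264. Between the media the ranges were -0.113 to 0.0182 for Lgals1, -0.0442 to 0.0900 for Lgals2, -0.113 to 0.0277 for Lgals4, -0.0165 to 0.0760 for Lgals9, -0.312 to 0.0468 for Lgals12 and -0.0069 to 0.0657 for Lgals3bp.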
